A study of Mus musculus with 10 samples.

Results

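Insulin-like growth factors are secreted peptides that drive growth through a receptor tyrosine kinase, and the liver is their main source in the body. Igf1 is made by adult hepatocytes under growth hormone, while Igf2 is an imprinted fetal growth factor whose hepatic expression is shut down after birth in mice. In plasma both ligands travel bound to binding proteins, of which Igfbp3 forms a long-lived complex with the acid-labile subunit Igfals, and Igf2r clears Igf2 without passing on its mitogenic signal.

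The 10 genes of this axis (Igf1, Igf2, Igf1r, Igf2r, Igfbp1, Igfbp2, Igfbp3, Igfbp4, Igfals and Grb10) were picked by symbol out of 31053 annotated genes, and each symbol matched a single gene. They were measured by Visium spatial transcriptomics, in which the polyadenylated RNA of a frozen section is bound by spots of known position and each molecule carries a unique molecular identifier (UMI). There were 10 mouse sections from 7 tissues. NEJ146 gave 4 adjacent sections of a single tissue, and NEJ634, NEJ638, NEJ654, NEJ677, NEJ687 and NEJ723 gave 1 section each. The model joins Alb-Cre, active in the hepatocyte lineage, with a CAG-driven human MYC transgene behind a floxed STOP cassette on a C57BL/6J background (ABC-Myc), and controls lack one or both alleles. The age and the exact alleles of each of the 7 animals are not given in the sources used here, and the human transgene has no measure of its own in these files.

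The labels call every tissue hepatoblastoma, whereas the study's text speaks of 4 ABC-Myc tumors, naming NEJ146, NEJ634, NEJ687 and NEJ723, and of 3 healthy livers, which leaves NEJ638, NEJ654 and NEJ677. The former are called the 4 tissues below and the latter the 3 tissues, so that the comparison between them is one of ABC-Myc tumors with normal liver by the study's text, though not by the labels. The hepatoblastoma marker Afp went along with that split, at 2023 to 4248 UMIs per 1000000 UMIs over tissue (CPM) in the 4 tissues and 3.79 to 9.63 CPM in the 3 tissues, so the label of the latter is not borne out by this marker. Of 6 hepatoblastoma genes 3 (Afp, Dlk1 and Sall4) stood at least 1 log2 unit higher in each of the 4 tissues than in any of the 3. Gpc3 and Epcam overlapped, with Gpc3 at 3.59 CPM in NEJ146 against 5.12 in NEJ638 and Epcam at 2.09 in NEJ687 against 5.08 in NEJ638. Alb, the hepatocyte secretory product, lay at 7839 to 13131 CPM in the 4 tissues and 51663 to 85700 CPM in the 3 tissues. With 1 tissue behind each name no spread between animals was measured within a name, and because the 2 sets come from the study's text and not from the labels, levels were ordered between them with no test. Between 39280329 and 117077925 UMIs per section lay over tissue, and counts were lowest for Igf2 in the 3 tissues (6 to 10 UMIs), Igf1r (70 to 630 UMIs a section), Grb10 in NEJ677 and NEJ654 (141 and 277 UMIs) and Igfals in NEJ723 (339 UMIs). Fewer cells of a type and less RNA per cell cannot be told apart in spots.

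Promoter windows of Igfals and Igfbp1 are shown because these genes differed between tissues in opposite directions. Capitals mark a STAT5-type site (TTCNNNGAA) in 2 of the RefSeq start sites of Igfals, and the CAAAACA core of the insulin-responsive element known from Igfbp1. The windows are on the plus strand of GRCm38.p6, at chr17:24877597-24877626, chr17:24878162-24878191 and chr11:7197667-7197696.
Igfals, upstream start: cgatctataatTTCTCAGAAaagaggctga
Igfals, next start: tctgccaggtgTTCCTAGAAgaggccctgg
Igfbp1: agagctcacaagCAAAACAaacttattttg
The sites begin 236, 58 and 108 bases before the RefSeq transcript start of their promoter, and both Igfals starts lie inside the GENCODE span of the gene given below. Searched on both strands from 250 bases before to 50 after each transcript start, TTCNNNGAA was held by 8.30% of 32851 RefSeq promoters and CAAAACA by 6.28%. Among the 17 promoters of the members, TTCNNNGAA was found in 2, both of Igfals, and CAAAACA in 1, that of Igfbp1. A match of letters is a description and not a binding site.

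The ligands split the 4 and the 3 tissues in opposite directions. Igf1 (GRCm38 chr10:87858265-87937042, plus strand) was at 119.1, 123.0, 115.7 and 100.6 CPM in the 4 NEJ146 sections, at 119.9 in NEJ634, 71.4 in NEJ687 and 41.3 in NEJ723. In NEJ638, NEJ654 and NEJ677 it was at 759.6, 719.1 and 808.4 CPM. The lowest of the 3 tissues was thus 6.0-fold above the highest of the 4, and only NEJ146 (mean 114.6 ± 9.79 CPM, SD, n = 4 sections) and NEJ634 lay within the spread of the NEJ146 sections.

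Igf2 (chr7:142650766-142666816, minus strand) was at 97.9, 98.7, 69.7 and 61.2 CPM in the NEJ146 sections, at 266.9 in NEJ634, 434.7 in NEJ687 and 404.1 in NEJ723. In the 3 tissues it was close to nothing, with 6 UMIs in NEJ638 (0.117 CPM, exact 95% Poisson interval 0.043 to 0.255), 7 in NEJ654 and 10 in NEJ677 (0.255 CPM, 0.122 to 0.468). The lowest of the 4 tissues (NEJ146, mean 81.9 ± 19.3 CPM, SD, n = 4 sections) stood 322-fold over the highest of the 3. Igf2 shares exons with the annotated gene Gm49394 on the same strand, which holds 497 of the last 500 exon bases of Igf2, where a poly(A)-primed assay reads, and Gm49394 was itself at 0.07 CPM or less. Reads from those bases cannot be given to one gene alone, so the level of Igf2 may be too low by an amount that was not measured. Its antisense RNA Igf2os was at 6.10 CPM in NEJ146, 13.6 in NEJ687, 21.7 in NEJ634 and 31.7 in NEJ723, and at 0 to 0.03 CPM in the 3 tissues.

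The share of Igf2 in the counted Igf1 and Igf2 UMIs is a share of UMIs and carries the same limit, so it is given to order the tissues and not as the mix of ligand transcripts. It was 90.7% in NEJ723 (95% binomial interval 90.3 to 91.1, for counting error only), 85.9% in NEJ687 and 69.0% in NEJ634. The 4 NEJ146 sections gave 45.1, 44.5, 37.6 and 37.8%, and the 3 tissues 0.0154 to 0.0315%. The 4 tissues thus ranged from 37.6 to 90.7%. H19, the imprinted neighbor of Igf2, did not follow it from tissue to tissue, with 11.96 CPM in NEJ723, 2872 in NEJ634, 6062 ± 483 (SD, n = 4 sections) in NEJ146 and 9068 in NEJ687.

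The receptors varied less than the ligands. Igf1r (chr7:67952827-68233668), which carries the growth signal of both ligands, was at 11.1 CPM in NEJ634 (10.29 to 12.05) and between 1.69 and 3.55 CPM in every other tissue, with overlapping ranges of the 2 sets. NEJ634 also had the highest sum of 11 stromal genes, at 2235 CPM against at most 1032 in any other section. Its sum of 5 bile duct genes was 495 CPM against at most 160. Their part in the Igf1r level was not tested. Igf2r (chr17:12682406-12769664), the clearance receptor, was at 30.3 ± 4.68 CPM (SD, n = 4 sections) in NEJ146, 43.3 in NEJ634, 50.05 in NEJ687 and 56.6 in NEJ723, against 24.1 in NEJ638, 17.2 in NEJ654 and 12.9 in NEJ677. The 2 sets of tissues did not overlap for Igf2r, but the lowest NEJ146 section (24.3 CPM) met NEJ638 within its counting interval. Airn, an imprinted antisense RNA that starts inside Igf2r and runs beyond it, was at 0.64 to 3.25 CPM.

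Among the binding proteins, Igfbp1 (chr11:7197782-7202546), a short-lived plasma protein switched by insulin and fasting, was highest in NEJ687 at 1110 CPM. It was at 671, 621, 635 and 692 CPM in the NEJ146 sections, 510 in NEJ723 and 439 in NEJ634, and at 204 in NEJ677, 197 in NEJ638 and 51.7 in NEJ654. The lowest of the 4 tissues was 2.15-fold above the highest of the 3. The neighboring gene Igfbp3 (chr11:7206086-7213923), 3539 bases away and on the opposite strand, had no such order and ran from 32.1 CPM in NEJ677 to 72.3 in NEJ634, the narrowest range of the 10 genes at 2.26-fold.

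Igfbp2 (chr1:72824503-72852474), a fetal-type binding protein that stays on in the adult liver, was at 3069 CPM in NEJ687 and at 1920, 1553, 1715 and 1437 CPM in the NEJ146 sections. NEJ634 (820 CPM) and NEJ723 (703 CPM) lay among the 3 tissues (731 to 876 CPM). High Igfbp2 was therefore a trait of only 2 of the 4 tissues. Igfbp4 (chr11:99041244-99054392), which restrains both ligands, ran from 473 ± 28.6 CPM (SD, n = 4 sections) in NEJ146 to 1393 in NEJ638, with the sets of tissues overlapping by NEJ723 (978 CPM).

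Igfals (chr17:24865997-24882010), which stabilizes circulating Igf1 in the ternary complex, split the sets of tissues in the same direction as Igf1. It was at 13.4, 14.1, 12.7 and 8.84 CPM in the NEJ146 sections, 12.6 in NEJ634, 10.2 in NEJ687 and 7.77 in NEJ723, and at 152 in NEJ638, 166 in NEJ654 and 124 in NEJ677. The gap between the sets was 9.81-fold. Grb10 (chr11:11930508-12038683), an imprinted adaptor that dampens signaling from the Igf1 and insulin receptors, split them in the opposite direction, at 175 ± 14.5 CPM (SD, n = 4 sections) in NEJ146, 215 in NEJ723, 248 in NEJ687 and 277 in NEJ634. In NEJ638, NEJ654 and NEJ677 it was at 22.1, 6.52 and 3.59 CPM, so that the lowest of the 4 tissues was 7.89-fold above the highest of the 3.

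**Figure D1:**
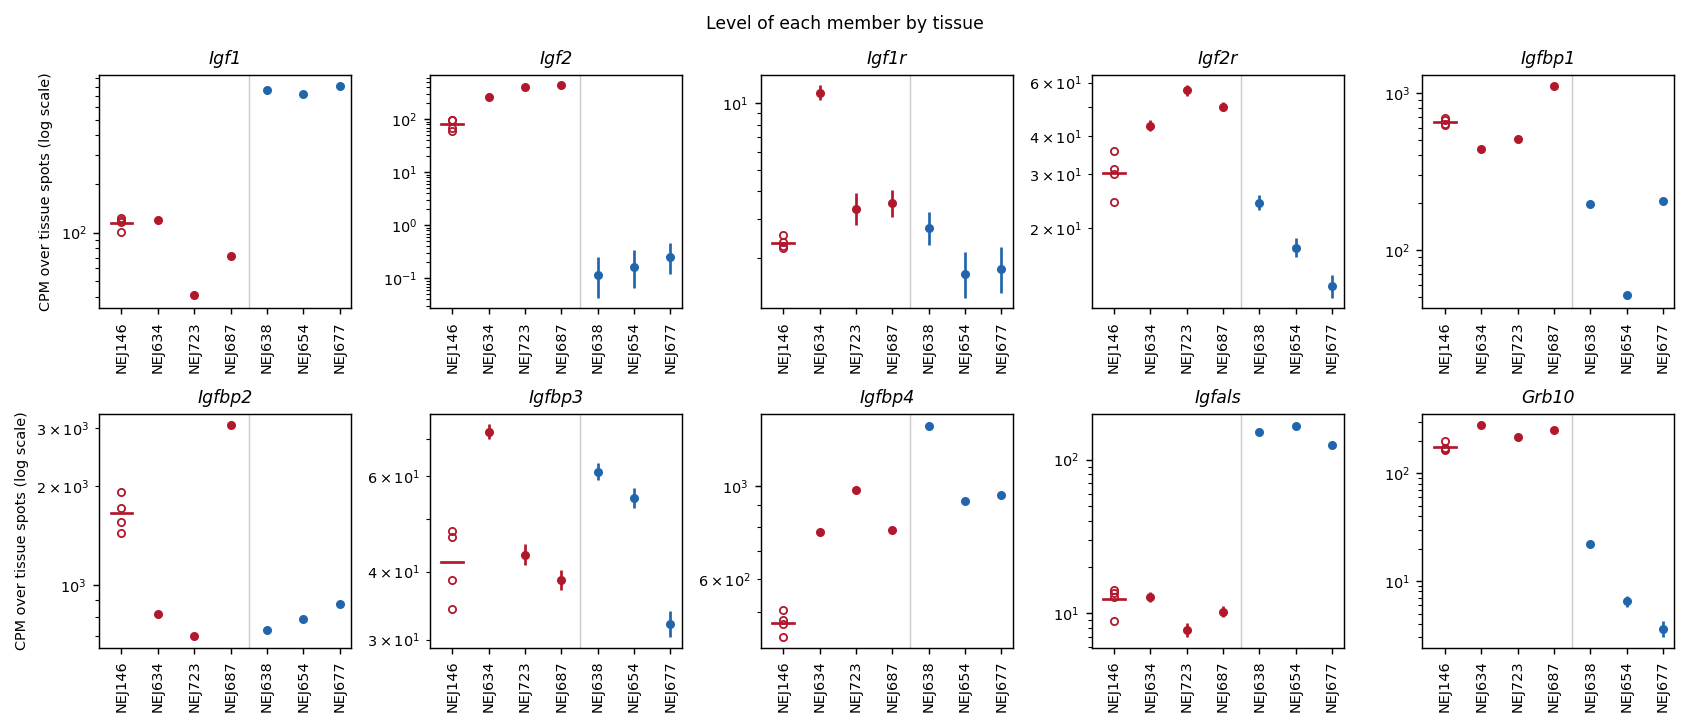
Level of each of the 10 genes in CPM over tissue spots, on log axes that differ between panels and do not start at 0. Open circles are the 4 NEJ146 sections with their mean as a line, filled circles are tissues with 1 section with exact 95% Poisson intervals, red marks the 4 tissues and blue the 3. Igf2 spans from 0.117 to 434.7 CPM, and Igf1 and Igfals run the other way.

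A gene was called set apart when its lowest value in one set exceeded the highest in the other by at least 1 on the log2(CPM + 1) scale. By this rule 5 of the 10 members were set apart, against 12.4% of 12648 genes whose mean level reached 1 CPM. Higher in the 4 tissues were Igf2 (gap 6.05), Grb10 (2.92) and Igfbp1 (1.10), where the background was 8.47% of genes, and higher in the 3 were Igfals (gap -3.20) and Igf1 (-2.57), where it was 3.97%. Igfbp1 lost the call when TMM library sizes replaced total UMIs, at a gap of 0.42, a scaling that shifted the median of all genes by -0.36 in NEJ634 to 0.33 in NEJ677. The other 4 calls held under each scaling. A range of at least 4-fold over the 7 tissues was seen for 8 members and for 24.0% of genes.

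The genes around the axis were read by 4 lists. Of 10 genes of growth hormone signaling, 4 were set apart and all 4 were higher in the 3 tissues. Ghr, the growth hormone receptor, was at 36.1 to 51.2 CPM in the 4 tissues and 204 to 245 CPM in the 3. Socs2, a feedback inhibitor of the receptor, was at 3.12 to 9.49 against 27.8 to 40.3 CPM, and Cish, of the same family, at 6.39 to 29.5 against 63.6 to 97.9 CPM. Serpina3k, a growth hormone-responsive serpin with close paralogs that can share reads, was at 0.87 to 212 against 4166 to 8620 CPM. Jak2 and Stat5b, the kinase and factor that carry the signal, were not set apart.

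Of 19 genes downstream of the receptors, from Insr and Irs1 to Akt1, Mtor and Foxo1, 0 were set apart. Of 15 other genes that bind, cleave or post-transcriptionally regulate the ligands, 8 passed the filter on low values and 1 was set apart, the RNA-binding protein Igf2bp3 at 31.1 to 44.2 CPM in the 4 tissues and 11.4 to 14.0 in the 3. Of 11 imprinted growth genes 2 were set apart, both higher in the 4 tissues. Dlk1, a fetal Notch-family ligand, was at 26.9 to 108 CPM against 0.03 to 0.16, and Peg3 at 59.4 to 197 against 4.10 to 13.7 CPM. A gene for which the 2 sets of tissues overlapped was given a gap of 0. By that convention the median gap was 0 for the lists of growth hormone signaling, receptor signaling and imprinted growth genes, as for all genes tested. It was 0.18 for the other binding genes. A median of 0 thus shows overlap and not an absence of difference.

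Markers of other cells moved with the same split, and 9 of 10 central-lobule genes were higher in the 3 tissues. Portal genes were mixed, with 2 of 10 higher in the 3 tissues and 1 higher in the 4, and 2 of 8 hepatocyte genes were higher in the 3 and 0 of 5 bile duct genes were set apart. All 12 proliferation genes and 7 of 8 erythroid genes were set apart and higher in the 4 tissues, whereas 0 of 11 stromal, 0 of 9 macrophage and 0 of 8 endothelial genes were. The summed erythroid genes were at 939 to 10249 CPM in the sections of the 4 tissues and 96.5 to 252 in the 3 tissues, and 1 of the 8 genes was at 0 in each of the 3 tissues and 0 in the others. NEJ146 had a mitochondrial share of 6.78 to 7.22% of UMIs against 2.46 to 3.86% elsewhere. The part of these differences in the members' levels was not tested.

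Position within the tissue was examined next. A spot's place between the portal and central ends of the liver lobule was scored from 10 portal and 10 central genes, none of them a member, and UMIs were summed over the 25% of spots with the highest and the 25% with the lowest score in each tissue. Tissues were the replicates, and edgeR's quasi-likelihood test with tissue as a block gave Benjamini-Hochberg adjusted p over all genes. The score opposed portal and central genes in the 3 tissues, where the lists correlated at -0.79 to -0.82 across spots, and did so little or not in the 4 (-0.17 to 0.27). Over all 7 tissues 179 of 12813 genes (1.40%) passed, 0.523% higher and 0.874% lower in portal spots, and 0 of the 10 members did. The nearest were Igf2r (log2 fold change of portal over central spots -0.30 ± 0.08, SE, edgeR adjusted p = 0.10) and Igf1 (0.29 ± 0.08, adjusted p = 0.12).

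In the 3 tissues alone, 5 members passed, against 16.9% of 12325 genes, in a fit with 2 residual degrees of freedom and a median of 8.41 from the prior shared over genes. Igfbp1 was lower in portal spots, at 144 CPM against 248 in central spots in NEJ638, 33.2 against 70.6 in NEJ654 and 143 against 257 in NEJ677 (log2 fold change -0.83 ± 0.06, SE, n = 3 tissues, edgeR adjusted p = 6.5e-06). Igfbp2 was the opposite, at 850 CPM in portal and 478 in central spots in NEJ638, 979 and 444 in NEJ654, and 915 and 628 in NEJ677 (0.90 ± 0.09, edgeR adjusted p = 8.6e-05). These 2 binding proteins thus marked opposite ends of the lobule in each of the 3 tissues.

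Igf1 and Igfals were both higher in portal spots of the 3 tissues, by 0.39 ± 0.06 (SE, edgeR adjusted p = 0.0015) and 0.42 ± 0.06 (edgeR adjusted p = 0.00087) on the log2 scale. Igfbp3 was higher by 0.24 ± 0.07 (edgeR adjusted p = 0.034). Igf2r did not pass, at -0.31 ± 0.11 (adjusted p = 0.088).

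In the 4 tissues alone, 0 members and 0.0227% of 13212 genes passed. The change of the contrast between the 2 sets was tested as a term of its own, called for 3.79% of 12813 genes. It passed for Igfbp1 (difference of the 3 minus the 4 tissues -0.88 ± 0.10 in log2, SE, edgeR adjusted p = 0.0035) and Igfbp2 (0.92 ± 0.18, edgeR adjusted p = 0.028), and for no other member. Igfbp1 stayed within -0.14 and 0.15 in the 4 tissues, and Igfbp2 was at 0.23 in NEJ146, 0.17 in NEJ723, -0.23 in NEJ687 and -0.42 in NEJ634. Since the score hardly opposed portal and central genes in the 4 tissues, whether those tissues lack zones or these genes lack a zonal pattern in them cannot be told apart.

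**Figure D2:**
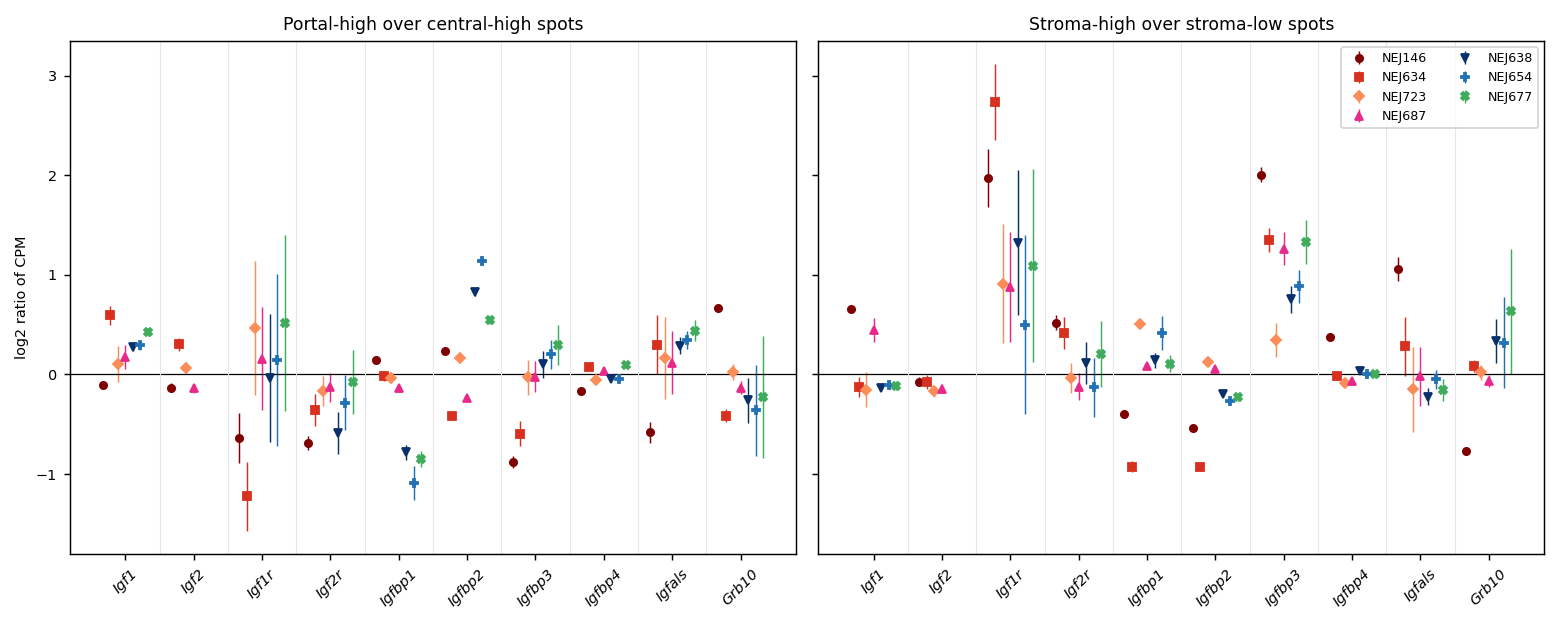
Log2 ratio of CPM between the highest and lowest 25% of tissue spots for each gene and tissue, by the portal minus central score (left) and by the stroma score (right). Bars are 95% intervals for counting error only, and Igf2 is not drawn for NEJ638, NEJ654 and NEJ677. In the left panel Igfbp1 lies at -0.78 or lower and Igfbp2 at 0.54 or higher in the 3 tissues, and Igf1r and Igfbp3 lie above 0 in all 7 tissues in the right panel.

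**Figure D3:**
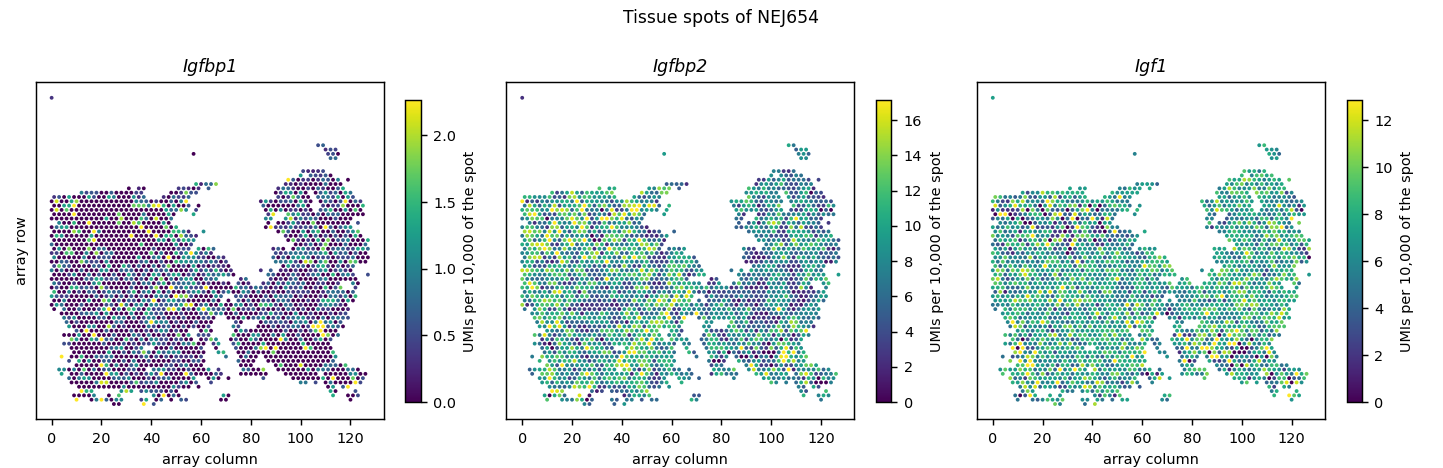
Tissue spots of NEJ654 at their array positions, colored by UMIs of Igfbp1, Igfbp2 and Igf1 per 10,000 UMIs of the spot, with the top 2% of spots set to the same color. Patches of high and of low Igfbp2 lie across the section, and Igfbp1 was at 33.2 CPM in portal and 70.6 CPM in central spots.

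Stromal spots were ranked in the same way by 11 genes of fibroblasts and muscle-like cells, such as Col1a1 and Acta2. Of 12750 genes 1908 (15.0%) passed, with 9.94% higher and 5.03% lower in stroma-high spots, and 3 members were among them. Igf1r was higher in stroma-high spots of 7 of 7 tissues, from 3.77 to 25.1 CPM in NEJ634, 1.09 to 4.29 in NEJ146 and 1.44 to 3.59 in NEJ638 (log2 fold change 1.36 ± 0.24, SE, n = 7 tissues, edgeR adjusted p = 0.0064). The remaining tissues had log2 ratios of 0.50 to 1.09, of which that of NEJ654, at 24 against 17 UMIs, was not apart from 0 by counting error.

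Igfbp3 was likewise higher in 7 of 7 tissues, from 18.2 to 72.9 CPM in NEJ146, 48.8 to 124 in NEJ634, 20.0 to 50.2 in NEJ677 and 25.1 to 60.3 in NEJ687, and least in NEJ723 with 38.9 to 49.3 CPM (log2 fold change 1.02 ± 0.16, SE, edgeR adjusted p = 0.0039). Igf2 was lower by a small margin (-0.26 ± 0.06, SE, edgeR adjusted p = 0.024), which rested on the 4 tissues that hold Igf2, with log2 ratios of CPM of -0.07 to -0.17, all smaller in size than the value fitted with TMM scaling. That call ended without NEJ634 (-0.23 ± 0.06, adjusted p = 0.050) and without NEJ723 (-0.25 ± 0.07, adjusted p = 0.061), in the 4 tissues alone (adjusted p = 0.064) and with the score taken per UMI (adjusted p = 0.052). Igfbp2 was at -0.40 ± 0.13 with an adjusted p of 0.063, and passed with RLE size factors, without the filter on low counts and in DESeq2 (adjusted p of 0.042, 0.032 and 0.012), as it did in the 3 tissues alone. Its log2 ratio was below 0 in 5 tissues and above 0 in NEJ723 (0.13) and NEJ687 (0.05).

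Other genes of the axis, named after their values were seen, lay in the same spots. Igfbp5 (log2 fold change 1.77 ± 0.27, SE, edgeR adjusted p = 0.0036), Igfbp7 (1.08 ± 0.17, adjusted p = 0.0033) and Htra1, a protease that cleaves binding proteins (1.80 ± 0.23, adjusted p = 0.0013), were higher in stroma-high spots, and Igf2bp3 was lower (-0.31 ± 0.08, adjusted p = 0.031), with 6 of the 15 genes tested. Of 19 genes downstream of the receptors only Mapk3 passed upwards and Rps6kb1 downwards. All 5 bile duct genes and 2 of 8 endothelial genes (Eng and Pecam1) were also higher in stroma-high spots, and 0 of 9 macrophage genes were. Of 8 hepatocyte genes 2 were lower there (Fgb at -0.20 and Serpina1c at -0.21), with a median of -0.19 for the list and -0.02 for all genes. The part of these cell types in the values of Igf1r, Igfbp3 and Igf2 was not tested. The difference of the stroma contrast between the 2 sets passed for 0 members and for 0.00784% of genes. In the 3 tissues alone 5 members passed (10.9% of genes), with Igf1r at 0.91, Igfbp3 at 0.83, Igfbp2 at -0.32, Igfals at -0.24 and Igf1 at -0.21. That fit had 2 residual degrees of freedom and an infinite prior, so it took the spread of each gene from the trend over all genes, and its p-values are not given. In the 4 alone only Igf1r passed (4.01% of genes), and Igfbp3 missed with a fold about as large (1.10 ± 0.23, edgeR adjusted p = 0.050).

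By a score of 12 proliferation genes, 0 of 12771 genes (0%) passed edgeR's test, 2647 had an unadjusted p under 0.05, and DESeq2 called 120 genes and 0 members. The 12 scored genes themselves did not pass. Values in NEJ146 and NEJ634 were nevertheless large. NEJ146 had Igf1 at 86.5 CPM in proliferation-high and 164 in proliferation-low spots, Igfbp3 at 28.4 and 59.6, and Grb10 at 215 and 112, in the same direction in each of the 4 sections. In NEJ634 Igf1r was at 15.1 and 6.56 CPM, Igfbp1 at 307 and 596, and Igfbp2 at 589 and 1035. Igfbp3 (70.5 and 64.1 CPM), Igfbp1 and Igfbp2 thus had the opposite direction to NEJ146, where Igfbp1 was at 677 and 609 CPM and Igfbp2 at 1702 and 1362. The log2 ratio of Igf1 was -0.48 in NEJ634, -0.21 in NEJ723, -0.13 in NEJ687 and -0.11 to 0.01 in the 3 tissues. Markers of other cells did not pass the test either. Median fitted log2 fold changes were -0.18 for 8 hepatocyte genes (Alb -0.36) and -0.48 for 10 central-lobule genes (Cyp2e1 -0.82). They were -0.11 for 11 stromal genes and 0.14 for 8 erythroid genes. Values ran from -0.44 (Dcn) to -0.0035 (Sparc) among stromal genes and from 0.03 (Hbb-bs) to 1.03 (Gata1) among erythroid genes. The part of these cell types was not tested.

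Order in space was measured by Moran's I, the likeness of adjacent spots after the UMI total of each spot is taken out, which is near 0 for a scatter without order. Of 61 pairs of member and tissue with at least 200 UMIs in every section, 30 reached 0.1. The shares over all genes that follow were not matched to the members by UMI count, and low counts lower Moran's I. Genes at or above 0.1 made up 13.8% in NEJ146, 12.4% in NEJ634, 3.90% in NEJ687, 3.46% in NEJ654, 3.25% in NEJ638, 2.67% in NEJ723 and 2.47% in NEJ677. Igfbp2 was at 0.68 in NEJ146, 0.72 in NEJ634, 0.51 in NEJ687, 0.36 in NEJ654, 0.31 in NEJ723, 0.21 in NEJ638 and 0.17 in NEJ677. Igfbp1 was at 0.70 in NEJ634, 0.50 in NEJ687, 0.49 in NEJ146, 0.46 in NEJ723 and 0.31 in NEJ654, and at 0.10 in NEJ638 and NEJ677.

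These 2 binding proteins were thus ordered in all 7 tissues. Igf2 reached 0.31 in NEJ634, 0.21 in NEJ687 and 0.16 in NEJ146, and 0.09 in NEJ723, where its level was among the highest. Genes with a value at least as high made up 2.67% in NEJ634, 1.33% in NEJ687 and 3.23% in NEJ723. In the NEJ146 sections they made up 5.64 to 14.8%, so against all genes Igf2 stood higher in NEJ723 than in NEJ146. Grb10 reached 0.37 in NEJ146 and 0.19 in NEJ634 and stayed at 0.05 or less elsewhere. Igf2r and Igfals stayed under 0.1 in each tissue, and Moran's I is lowered by low counts, so small values do not show an even spread.

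**Figure D4:**
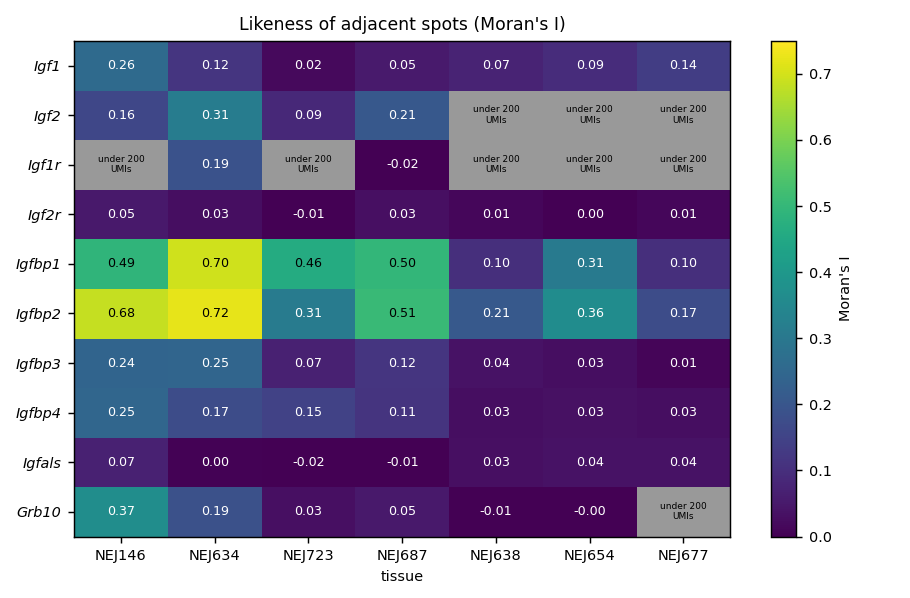
Moran's I of each gene in each tissue, with NEJ146 as the mean of its 4 sections and gray cells where a section had under 200 UMIs. Igfbp1 and Igfbp2 hold the highest values, up to 0.70 and 0.72 in NEJ634.

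In NEJ634, Igf2 on one side and Igfbp1 and Igfbp2 on the other marked different areas of the section. Across its 1890 tissue spots Igfbp1 went with Igfbp2 (r = 0.72) and both against Igf2 (r = -0.37 and -0.38). Igf2 went with Afp (r = 0.46) and against H19 (r = -0.45), while Igfbp1 went with H19 (r = 0.66) and against Afp (r = -0.50). These correlations share the spots and their totals and are descriptions.

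The same areas were read as CPM in the 25% of NEJ634 spots with most and the 25% with least H19, a split chosen after the data had been seen. Igfbp1 was at 685 CPM in H19-high and 202 in H19-low spots, Igfbp2 at 1304 and 462, and Igf2 at 203 and 326. Igf1 was at 126 and 118 CPM and Grb10 at 259 and 282, so that these genes differed little between the areas of NEJ634. Elsewhere they differed more, with Igf1 lower in H19-high spots of the 4 NEJ146 sections (log2 ratio -0.90 to -1.05) and of NEJ687 (-0.62), and Grb10 higher in those of NEJ146 (1.01 to 1.14). Igfbp3 was lower in the H19-high spots of each of these tissues, at -1.004 to -1.793 in NEJ146, -1.012 in NEJ687 and -0.665 in NEJ634. The hepatocyte gene Alb moved with these, at -1.47 to -1.85 in NEJ146, -0.86 in NEJ687 and -0.76 in NEJ634, and its part was not tested. In NEJ687 Igfbp1 was at 1359 and 936 CPM, Igfbp2 at 3648 and 2634, and Igf2 at 387 and 418. In the NEJ146 sections Igf2 ran the other way, at 115 against 69.3, 111 against 72.3, 66.6 against 55.1 and 60.3 against 52.4 CPM. The opposition of Igf2 and H19 across spots was thus seen in NEJ634 and not in NEJ146. Across all tissue spots their r was 0.15 in NEJ146, 0.01 in NEJ687 and -0.04 in NEJ723.

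**Figure D5:**
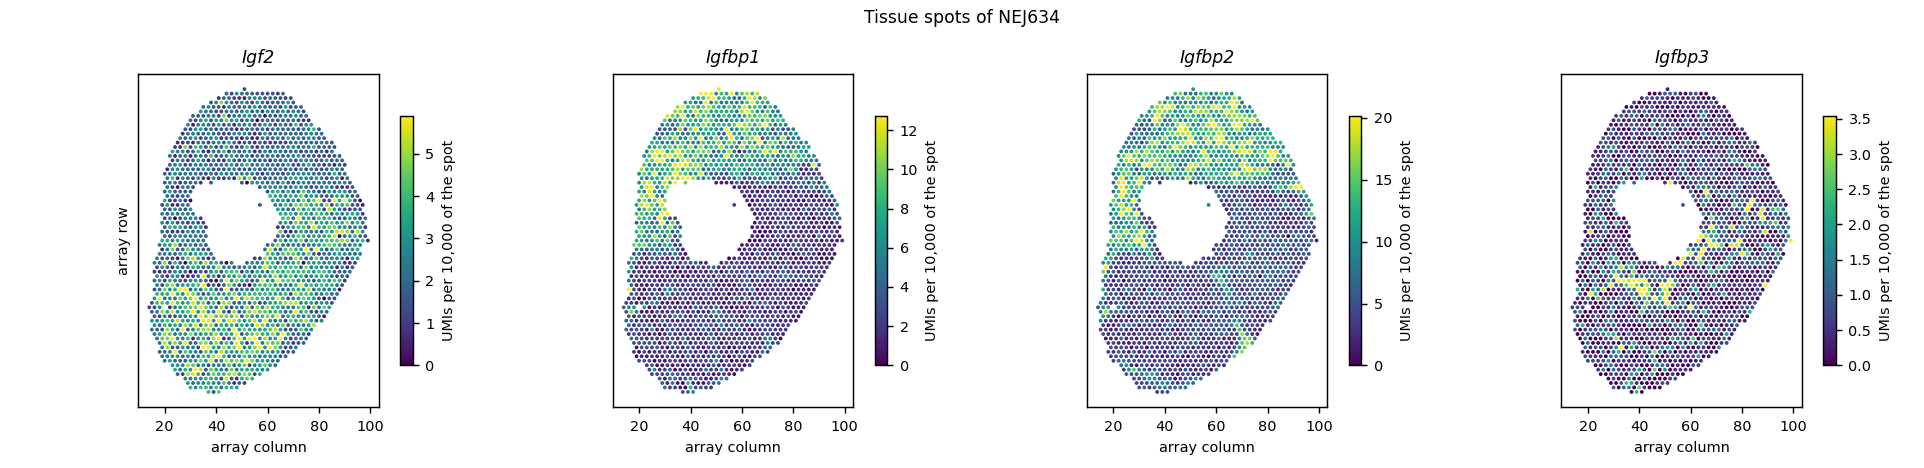
Tissue spots of NEJ634 at their array positions, colored by UMIs of Igf2, Igfbp1, Igfbp2 and Igfbp3 per 10,000 UMIs of the spot, with the top 2% of spots set to the same color. Igfbp1 and Igfbp2 are high in the upper part of the section and Igf2 in the lower part (r = -0.37 and -0.38), and Igfbp3 is high in a few narrow areas below and beside the central gap.

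The pair of Igfbp1 and Igfbp2 went together in NEJ146 (r = 0.55), NEJ687 (r = 0.56) and, weakly, NEJ723 (r = 0.19), and slightly apart in NEJ638 (-0.19), NEJ654 (-0.08) and NEJ677 (-0.04). In NEJ146, Grb10 went with Igfbp2 (r = 0.45) and Igfbp1 (r = 0.37) and against Igf1 (r = -0.30). For each member the genes with the most alike pattern were ranked by the mean r across spots over the tissues where it had at least 200 UMIs in every section. Alb came first for Igf1 (mean r = 0.26, range 0.06 to 0.55 over 7 tissues) and for Igfals (0.12), followed by Apoc3 and Hpx for Igf1.

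Cps1, the entry enzyme of the urea cycle, came first for Igfbp2 (mean r = 0.49, range 0.34 to 0.81 over 7 tissues), with Ahsg and Slc25a47 next. For Igf2 the serpins Serpina1e and Serpinf2 and then Afp came first, at 0.27, 0.26 and 0.24 over 4 tissues. For Igfbp3 it was Igfbp7, Bgn and Col3a1, the last 2 matrix genes, at 0.27, 0.25 and 0.25 over 7 tissues. Igfbp1 was led by Rbp4, Igfbp2 and Rnase4, Igf1r by S100a6, Flna and Spp1 over 2 tissues, Igf2r by Actb, Igfbp4 by Apoa1 and Grb10 by Rpl4, with Igf2r, Igfbp4 and Grb10 no higher than 0.16 in the mean. For Igf1r the 2 tissues were unlike, with r of 0.05 and 0.39 for S100a6, 0.07 and 0.36 for Flna, and 0.08 and 0.33 for Spp1. They were NEJ634 and NEJ687, and NEJ687 held only 204 Igf1r UMIs.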

How the data were processed

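The deposited files hold UMI counts per gene and spot, which the authors made with 10x pipelines; the submitters' notes name Cell Ranger 6.0 for NEJ146 (labelled total RNA), Space Ranger 1.3 for the other tissues (labelled polyA RNA) and mm10. That difference moves with NEJ146 and its part was not tested. Tissue spots were the deposited calls. NEJ146 has none used here, so spots with at least 8000 UMIs were taken, a rule that found 82.4% of tissue and left out 40.8% of other spots when applied to the 6 called sections. The members and gene lists were chosen with earlier results of these data known. CPM are UMIs per 1000000 UMIs over tissue spots, and intervals cover counting error only. The 4 NEJ146 sections differed beyond sampling noise (chi-square per degree of freedom 14.1 to 19.4 among sections 1 to 3, and 63.97 to 86.6 against section 4) and count as 1 tissue. Zone contrasts summed counts over the 25% of spots at each end of a score and used edgeR 4.0.16 with tissue as a block, at an adjusted p of 0.05, with DESeq2 1.42.0 as alternative. p-values measure the spread between tissues of the high over low ratio, together with a prior shared over genes. Members are all named, list genes by the largest gap (at most 4 a list). Gene positions are GENCODE M21 on GRCm38. The scripts were tested on simulated data. Alternatives were the scaling, pseudocount, filters, spot rule, score and left-out tissues or sections. No protein sequence was used.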

Additional observations from a re-analysis of the deposited data

Results flagged for a closer look

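Among the 4 adjacent NEJ146 sections, Grb10 in section 4 (196.1 CPM) stood apart from the others (164.8 to 169.7 CPM), with a gap of 0.844 of the whole range, above Dixon's 95% critical value for 4 samples, which chance passes in about 5% of groups. All 10 members were screened in this way and only Grb10 passed. Section 4 also lay furthest from the others over all genes, so its being apart is not particular to Grb10. The lobule contrast differed between the 3 and the 4 tissues for Igfbp1 (-0.88 in log2) and Igfbp2 (0.92). In NEJ146 the portal over central log2 ratio was opposite in sign to that of the 6 other tissues in each of its 4 sections for Igf1 (-0.11), Igfals (-0.58) and Igfbp1 (0.15). By counting error the ratio was not apart from 0 for Igf1 in NEJ723 and for Igfals in NEJ634, NEJ687 and NEJ723. The same held for Igfbp1 in NEJ634 and NEJ723. The score hardly opposed portal and central genes in the 4 tissues, NEJ146 among them. These differences of NEJ146 were not tested. In spots outside the deposited tissue call, Igf2 was at 155 CPM in NEJ634, 241 in NEJ723 and 206 in NEJ687, below the 267, 404 and 435 CPM over tissue. In the other 3 called sections it was higher outside than over tissue, at 0.415 against 0.117 CPM in NEJ638, 0.280 against 0.165 in NEJ654 and 1.56 against 0.255 in NEJ677, where 40 of 50 Igf2 UMIs lay outside the call. Whether the few Igf2 UMIs over those tissues come from their cells was not tested. Spots outside the call held many UMIs, with a median of 11895 against 12535 over tissue in NEJ638 and 7079 against 18742 in NEJ723. Other members were present there too, with Igf1 at 784 against 760 CPM and Igfbp1 at 145 against 197 CPM in NEJ638. What these spots hold was not tested, and zone contrasts and Moran's I in these sections rest on the deposited calls.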

How the results depend on the processing

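The number of members set apart, of members with a range of at least 4-fold and of ordered pairs in space stayed within 1.5 times of the reported count under each alternative run. Single values moved more often: 93 levels lay outside the spread of the NEJ146 sections or the counting interval and 607 within it, and 95 values of Moran's I differed by over the spread between sections and 454 did not. Many of the 607 and 454 were fixed in advance. The spot rules for NEJ146 and its left-out sections change no value of the other tissues, so these counts understate the share that moved. Genes set apart between tissues went from 1573 to 949 with a pseudocount of 5 and to 309 with a gap of at least 2. In the lobule contrast, DESeq2 called 1 member (Igf1) and 397 genes, a score per UMI 1 member (Igf2r) and 310 genes, no filter on low counts 355 genes, the 3 tissues alone 5 members and 2077 genes, and the 4 alone 3 genes. Leaving out a tissue gave 0 to 2 members (Igf1 and Igfals without NEJ146) and 43 to 269 genes (43 without NEJ638, 47 without NEJ654, 52 without NEJ677, 110 without NEJ687 and 269 without NEJ146). Among members called in any fit, the sign turned in the 4 tissues alone for Igfbp1 (0.0236), Igfbp2 (-0.0313) and Igfals (-0.0152), and for Igfbp3 in the 3 alone (0.24) and over left-out tissues (-0.185 to 0.0246). In the stroma contrast the 3 tissues alone gave 5 members, and the 4 alone 1 member and 533 genes; leaving out a tissue or section gave 854 to 1948 genes (854 without NEJ634, 910 without NEJ146, 964 without NEJ638, 1103 without NEJ687 and 1271 without NEJ723). The sign turned for Igf1 (0.0604) and Igfals (0.19) in the 4 alone, and for Igfals with spots of at least 500 UMIs (0.0076) and over left-out tissues (-0.187 to 0.0673). The proliferation contrast called 65 genes with no filter, 120 with DESeq2, 84 in the 3 tissues alone and 0 to 2 with a tissue or section left out. For members called in no fit, 27 of 340 alternative values over the 3 contrasts had the opposite sign. The causes were not tested. A rule on the mitochondrial share for NEJ146 spots and the test of the difference between the sets were added after seeing the data. On the called sections, on which its threshold was picked, the mitochondrial rule found 89.2% of tissue and left out 91.0% of other spots. The zone contrasts pair high and low spots within a tissue through the tissue block. Beyond that, no paired analysis was possible by replicate number, because the numbers only name capture areas of NEJ146. Low UMI counts limit Igf1r in every tissue and Igf2 in NEJ638, NEJ654 and NEJ677.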
